A study of Mus musculus with 8 samples.

Results

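The genes that copy DNA and carry a cell through mitosis were followed in the lungs of mouse embryos, taken whole on embryonic day 14.5 and measured on 1 microarray each. A list of 50 cell cycle genes was fixed by name, and 47 of them had a probe set assigned to a single gene symbol, among 22180 genes measured in this way. Ccne2, Ccnb1 and Ccnf had no such probe set and were not analysed here. Of the 47, 17 act in or just before S phase, 19 in G2 and mitosis, 6 are G1 cyclins and their kinases, and 5 are transcriptional regulators of the cycle. Where a gene had several probe sets, the one with the highest mean over the 8 arrays was used. The genes were listed by name and not by a cut on their values, but with earlier results of these data known.

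All 8 embryos were of the mixed strain background C57BL/6 x 129S6 and carried Shh-cre, which produces the Cre recombinase in cells that express Sonic hedgehog, in the lung the epithelium. The 4 mutants, of genotype Shh-cre:Ezh2-flox/flox, also carried 2 floxed copies of Ezh2, the histone methyltransferase of Polycomb repressive complex PRC2. The 4 controls are labelled Shh-cre alone. There were 4 litters of 2 embryos, controls 1 and 2, controls 3 and 4, mutants 1 and 2, and mutants 3 and 4. No litter held both genotypes, so a difference between dams and a difference between genotypes cannot be told apart. Whole lung was used, and epithelium is only one of its tissues. A lower value could come from fewer cells in a phase or from less RNA per cell, and these cannot be told apart here.

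Proliferating cells license their replication origins in G1, when Cdc6 and Cdt1 load the MCM helicase onto DNA, and start replication when cyclin-dependent kinases phosphorylate the RB family and release E2F factors. Genes of the next wave, for spindle, kinetochore and chromosome segregation, are switched on in G2 by B-Myb and FoxM1 together with the MuvB complex at promoter elements called CHR. The inhibitor p21, encoded by Cdkn1a, blocks these kinases and holds both waves down through the RB proteins and the DREAM complex. The lung at this stage is branching and its progenitors divide rapidly. The comparison asked whether the cell cycle genes differed between genotypes in lungs in which the p21 transcript is higher.

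Ezh2 was a weak check of the genotype in whole lung. Its log2 values were 11.84, 11.93, 11.83 and 11.89 in controls 1 to 4 and 11.80, 11.80, 11.75 and 11.77 in mutants 1 to 4, and the difference did not pass the test (log2 change −0.09 ± 0.05 (SE), adjusted p = 0.652 by limma). Where its probes lie relative to the floxed exons is not known here. The lung regulator Nkx2-1 and the surfactant gene Sftpc were well measured in both groups, at mean log2 values of 10.79 and 12.85 in controls and 10.74 and 12.93 in mutants. Array medians lay between 7.05 and 7.12. Of the embryos, 3 had low Xist values (6.37 to 6.74), as male embryos do, namely control 1, control 2 and mutant 3, and 5 had high values (12.6 to 13.0). The low and high controls fall into different litters, so for controls the litter and the sex of the embryo cannot be told apart.

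None of the 47 listed cell cycle genes passed the test between mutant and control lungs. Of the 47 genes 0 were higher and 0 were lower by limma at 0.05 after Benjamini-Hochberg adjustment across the 22180 genes, against 0.604% of all genes called higher and 0.248% called lower, or 0.852% either way. At an unadjusted p of 0.05 by limma, 1 of the 47 was higher and 4 were lower, and all 4 were S-phase genes. The corresponding shares of all genes were 5.61% and 4.26%, or 9.86% in either direction. The Cdkn1a transcript itself rose 4.71-fold in the same lungs.

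**Figure D1:**
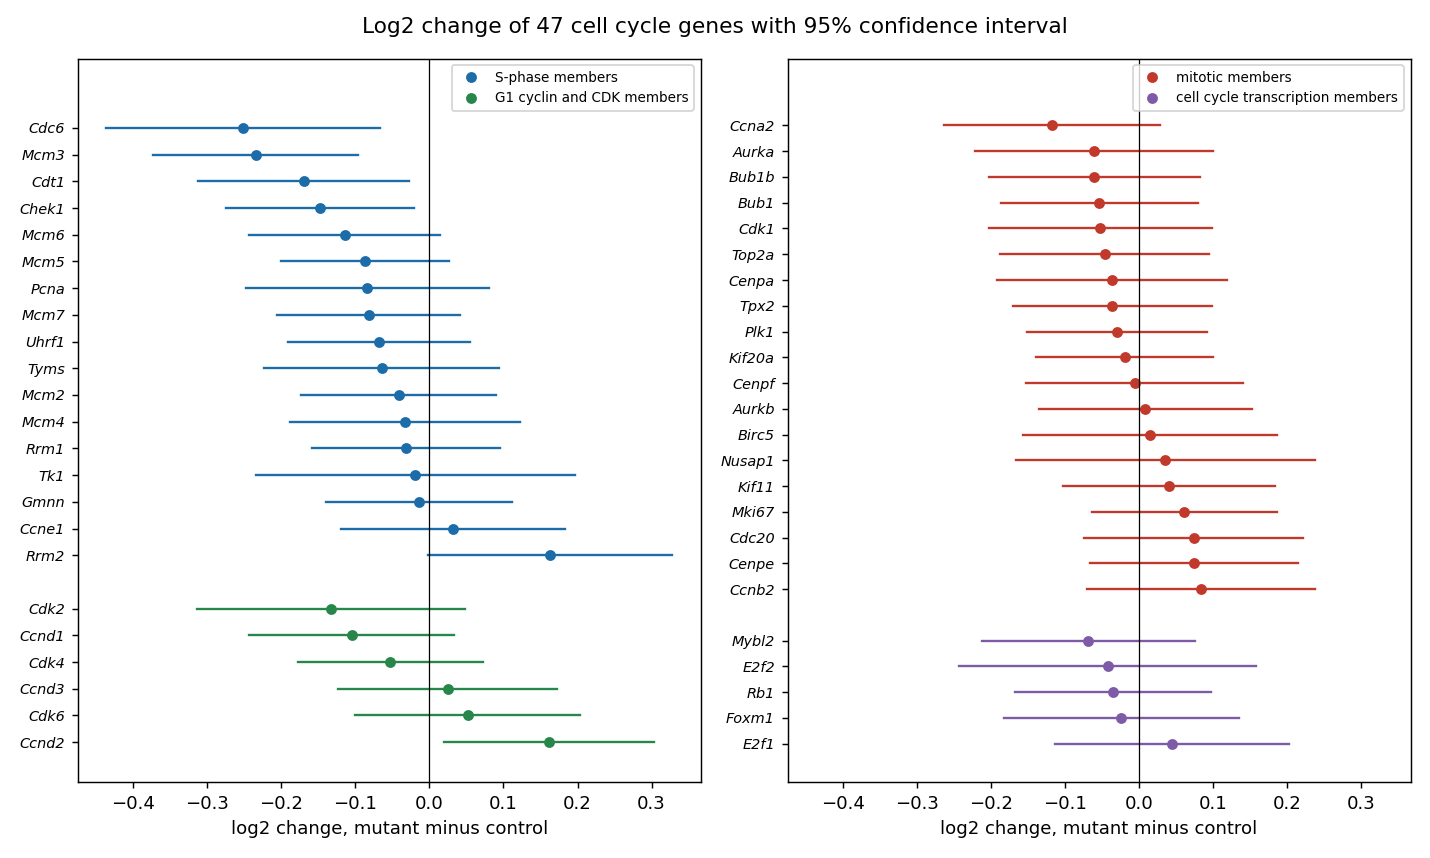
Log2 change (mutant minus control, horizontal axis) of each of the 47 cell cycle genes, with points for the fitted change and lines for its 95% confidence interval from limma. S-phase genes (blue) lie mostly left of 0, with 15 of 17 negative, while the 19 mitotic genes (red) lie on both sides, with 11 negative.

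The S-phase and mitotic genes were set side by side. The median log2 change was −0.07 for the 17 S-phase genes and −0.02 for the 19 mitotic genes, against 0.01 for all genes tested. All 47 members were brighter than the median of all genes, and such brighter genes had a median of −0.02, like the mitotic genes. The shares of all genes below include the dimmer genes, and shares of the brighter genes alone are not given here. Of the S-phase genes 15 had a log2 change below 0, or 88.2%, against 57.9% of the mitotic genes and 47.1% of all genes, of which 52.9% had a log2 change above 0. These counts depended on the litters. Without controls 1 and 2 the S-phase and mitotic medians still differed, at −0.11 and −0.05. The counts came close in that fit, at 15 of 17 S-phase and 16 of 19 mitotic genes. Without controls 3 and 4 the counts were 14 of 17 and 5 of 19. With quantile normalization repeated, and also without mutants 3 and 4, they were 12 of 17 and 9 of 19. In 6 of the 17 S-phase genes (35.3%) all 4 mutants lay below all 4 controls, which held for 3.6% of all genes, and in 0 of the 19 mitotic genes. The reverse, all mutants above all controls, held for 1 of the 47 members, Ccnd2, and for 4.48% of all genes, so that groups did not overlap in 7 members and in 8.07% of all genes. These differences are small. No gene among them passed. The genes of a list vary together across embryos, so these shares are descriptions of 8 lungs and carry no test.

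**Figure D2:**
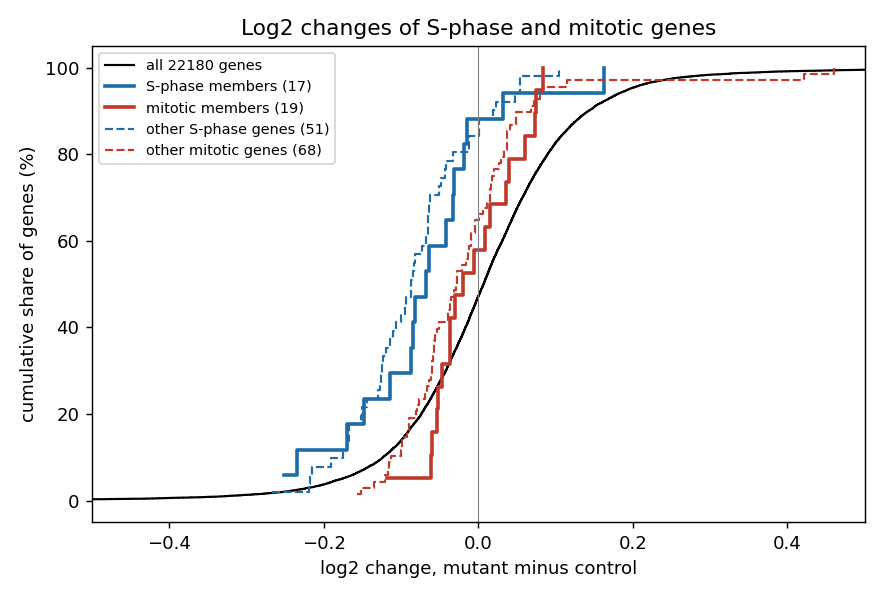
Cumulative share of genes (vertical axis, percent) by log2 change (horizontal axis, cut to −0.5 to 0.5) for all genes (black), S-phase genes (blue) and mitotic genes (red), with the members as solid lines and other genes of the same phases as dashed lines. The blue lines lie to the left of the black one over most of their range, and the solid red line crosses it.

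The lowest log2 changes among the S-phase genes were those of Cdc6, Mcm3 and Cdt1, which act in helicase loading. Mcm3, a subunit of the replicative helicase, had log2 values of 10.49, 10.51, 10.54 and 10.61 in controls 1 to 4 and 10.29, 10.42, 10.24 and 10.27 in mutants 1 to 4. Every mutant lay below every control. Its log2 change was −0.23 ± 0.06 (SE), or 0.85-fold with a 95% interval of 0.772 to 0.935. It did not pass (adjusted p = 0.165 by limma). It passed in 1 of 23 alternative fits, the one with the Xist level as a covariate, with a log2 change of −0.26 and an adjusted p of 0.03 by limma; over all 23 fits the adjusted p ran from 0.03 to 0.515.

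Cdc6, which loads the helicase onto origins, had log2 values of 9.90, 9.96, 9.96 and 9.91 in controls 1 to 4 and 9.72, 9.85, 9.46 and 9.70 in mutants 1 to 4. The controls were close together and the mutants spread over a wider range, with mutant 3 lowest and mutant 2 nearest to the controls. The difference of −0.25 ± 0.08 (SE) did not pass (adjusted p = 0.313 by limma). Cdt1, the partner of Cdc6 in loading, had log2 values of 9.74, 9.69, 9.73 and 9.75 in controls and 9.47, 9.64, 9.48 and 9.63 in mutants. The groups did not overlap, and the log2 change of −0.17 ± 0.06 (SE) had an adjusted p of 0.412 by limma. Gmnn, which encodes the Cdt1 inhibitor geminin, had a log2 change of −0.01.

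All 6 MCM subunits had a log2 change below 0, with a median of −0.08, although with quantile normalization repeated 5 of 6 were below 0 and the median was −0.06, and 5 of 6 were below 0 without mutant 3. The mutants lay below the controls in Mcm3, Mcm5 and Mcm6. Mcm5 had log2 values of 11.87, 11.87, 11.92 and 11.90 in controls 1 to 4 and 11.79, 11.80, 11.79 and 11.81 in mutants 1 to 4, a difference of −0.09 that was small but larger than the spread within either group. Mcm6 had a log2 change of −0.11, Mcm7 −0.08, Mcm2 −0.04 and Mcm4 −0.03, and none passed.

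Pcna, the sliding clamp of the replication fork, had log2 values of 12.28, 12.11, 12.30 and 12.20 in controls and 12.28, 12.10, 12.05 and 12.12 in mutants. The groups overlapped, with mutant 1 as high as the higher controls. The difference of −0.08 ± 0.07 (SE) did not pass (adjusted p = 0.786 by limma). Chek1, the kinase of the replication checkpoint, singled out after its values were seen, had log2 values of 10.52, 10.57, 10.50 and 10.49 in controls and 10.34, 10.45, 10.31 and 10.39 in mutants. Its groups did not overlap, and its log2 change of −0.15 ± 0.06 (SE) had an adjusted p of 0.426 by limma. Uhrf1, which guides maintenance methylation at the fork, had a log2 change of −0.07.

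The enzymes of nucleotide supply did not share one direction. Rrm2, the regulated subunit of ribonucleotide reductase, had the highest log2 change of the S-phase genes, 0.16, with log2 values of 10.32, 10.35, 10.40 and 10.23 in controls and 10.44, 10.65, 10.39 and 10.47 in mutants. Mutant 3 lay below control 3, so the groups overlapped, and the adjusted p was 0.515 by limma. The other subunit Rrm1 had a log2 change of −0.03, thymidylate synthase Tyms −0.06 and thymidine kinase Tk1 −0.02. Ccne1, which encodes cyclin E1, the activator of Cdk2 at S-phase entry, had 0.03.

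The 150 bases upstream of the transcription start are shown for the S-phase genes named by rule that held a searched motif. They come from a RefSeq table of the build GRCm38.p6, and capitals mark matches on either strand to CCAAT, the box bound by NF-Y, or to the E2F sites TTTCCCGC, TTTGGCGC, TTTCGCGC and TTTGCCGC. Mcm3 lies at chr1:20820313-20820462 on the minus strand, Cdc6 at chr11:98908001-98908150 on the plus strand and Pcna at chr2:132253181-132253330 on the minus strand.
Mcm3: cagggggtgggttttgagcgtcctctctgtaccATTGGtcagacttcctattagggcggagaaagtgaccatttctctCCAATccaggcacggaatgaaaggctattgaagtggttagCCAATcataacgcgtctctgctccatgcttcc
Cdc6: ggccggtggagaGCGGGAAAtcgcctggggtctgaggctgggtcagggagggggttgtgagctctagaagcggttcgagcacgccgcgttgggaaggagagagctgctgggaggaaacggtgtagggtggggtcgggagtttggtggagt
Pcna: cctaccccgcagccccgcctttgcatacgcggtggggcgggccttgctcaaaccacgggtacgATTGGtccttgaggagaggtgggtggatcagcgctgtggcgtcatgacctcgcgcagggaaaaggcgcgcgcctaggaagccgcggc
Mcm3 held 3 CCAAT boxes in this window, Cdc6 held 1 E2F site and Pcna held 1 CCAAT box.

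The E2F sites were counted in the 250 bases upstream of the start. Promoters were in the table for 15 of the 17 S-phase genes and 15 of the 19 mitotic genes. E2F sites were in 5 of the 15 S-phase promoters (33.3%) and in 1 of the 15 mitotic promoters (6.67%), against 2.7% of 16990 promoters of all genes. Of the 37 members with a promoter, 7 held an E2F site, namely Mcm5, Mcm6, Mcm7, Cdc6, Uhrf1, Cdk1 and Cdk2, and their log2 changes ran from −0.25 to −0.05 with a median of −0.09; 6 of the 7 were below 0 without controls 3 and 4. The 30 members without a match had a median of −0.03 and 18 of them were below 0. They ran from −0.23 to 0.16 and included the S-phase genes Mcm3 and Cdt1. Of the 7 with a site, 5 were S-phase genes, so site and phase cannot be told apart in this comparison. A match is a run of letters and not a measured binding site.

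Mitotic genes gave no single direction, and 0 of 19 had an unadjusted p under 0.05 by limma. Their log2 changes ran from −0.12 for Ccna2 to 0.08 for Ccnb2. The 95% intervals of all 19 lay between −0.26 and 0.24, so that changes beyond 0.833-fold or 1.18-fold lay outside the interval of every one. Narrow intervals of this kind do not show that the genotypes were alike.

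Mki67, the gene of the proliferation antigen Ki-67, had log2 values of 12.18, 12.19, 12.09 and 12.23 in controls 1 to 4 and 12.21, 12.25, 12.22 and 12.25 in mutants 1 to 4. The mutants were close together, and control 4 reached into their range. Its log2 change was 0.06 ± 0.06 (SE), or 1.04-fold with a 95% interval of 0.956 to 1.14, with an adjusted p of 0.795 by limma. Top2a, the topoisomerase that untangles chromosomes, had log2 values of 11.90, 11.92, 11.89 and 11.999 in controls and 11.88, 11.92, 11.77 and 11.95 in mutants. Mutant 3 was the lowest of the 8, and the other mutants lay close to the controls. The difference of −0.05 ± 0.06 (SE) did not pass (adjusted p = 0.87 by limma).

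The cyclins of G2 and mitosis differed in sign. Ccna2, the gene of cyclin A2, which acts from S phase to early mitosis, had log2 values of 12.23, 12.26, 12.16 and 12.16 in controls and 12.07, 12.18, 11.96 and 12.13 in mutants. Mutant 2 lay above controls 3 and 4, and the adjusted p was 0.623 by limma. Ccnb2, the gene of cyclin B2, had log2 values of 11.79, 11.69, 11.97 and 11.90 in controls and 11.93, 11.87, 11.94 and 11.96 in mutants. The 2 control litters stood apart, with controls 1 and 2 lower than every mutant and control 3 above them all, and the log2 change of 0.08 ± 0.07 (SE) had an adjusted p of 0.771 by limma. Without the litter of controls 1 and 2 the change was −0.01. Cdk1, their kinase partner, had a log2 change of −0.05.

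Among kinetochore and checkpoint genes, Cenpe, a kinesin of the kinetochore, had log2 values of 10.71, 10.77, 10.59 and 10.80 in controls and 10.81, 10.78, 10.80 and 10.78 in mutants. Again the mutants were close together, near the highest control, with a log2 change of 0.07 and an adjusted p of 0.778 by limma. The centromere genes Cenpa and Cenpf had −0.04 and −0.01, and the spindle checkpoint kinases Bub1 and Bub1b −0.05 and −0.06. The mitotic kinases Plk1, Aurka and Aurkb had log2 changes of −0.03, −0.06 and 0.01. Cdc20, which activates the anaphase-promoting complex, had 0.07. The spindle genes Kif11, Kif20a, Tpx2 and Nusap1 had 0.04, −0.02, −0.04 and 0.04, and Birc5, the gene of survivin, 0.01.

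**Figure D3:**
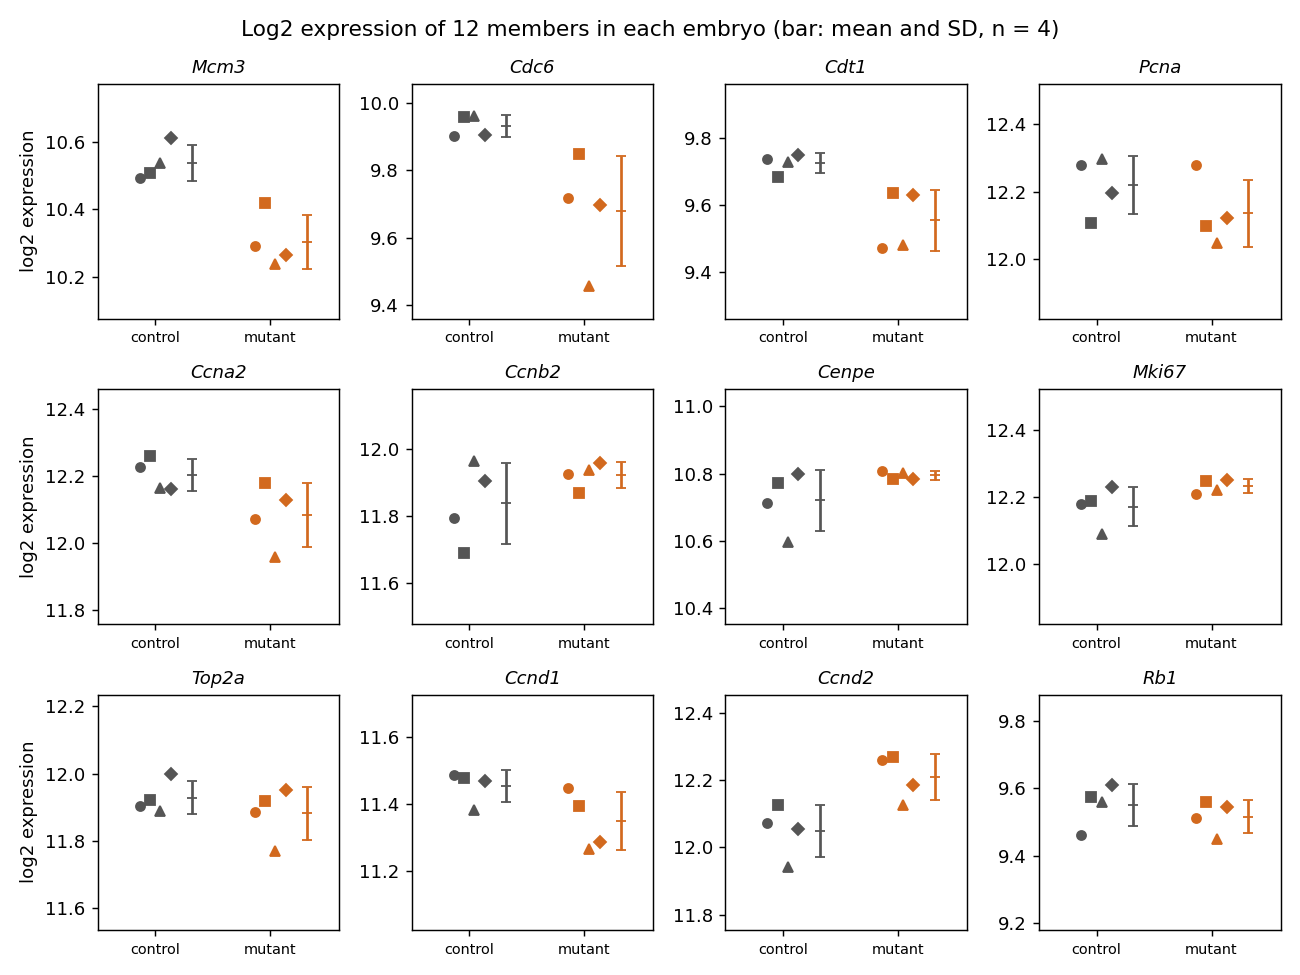
Log2 expression (vertical axis, spanning 0.7 in every panel) of 12 members in each embryo, with circles, squares, triangles and diamonds for embryos 1 to 4 of each group, grey for controls and orange for mutants, and bars for mean and SD (n = 4). The groups do not overlap for Mcm3, Cdc6, Cdt1 and Ccnd2 and overlap for the others.

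Promoters of mitotic genes are shown because CHR elements are where the second wave is controlled. Capitals mark CCAAT, or the CHR letters TTTGAA and TTCGAA, on either strand in the 150 bases upstream of the start (RefSeq, GRCm38.p6). Ccnb2 lies at chr9:70421555-70421704 on the minus strand, Cenpe at chr3:135212413-135212562 on the plus strand and Mki67 at chr7:135716380-135716529 on the minus strand.
Ccnb2: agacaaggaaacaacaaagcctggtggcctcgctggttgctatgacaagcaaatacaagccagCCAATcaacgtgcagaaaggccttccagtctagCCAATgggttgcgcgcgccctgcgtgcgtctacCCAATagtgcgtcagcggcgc
Cenpe: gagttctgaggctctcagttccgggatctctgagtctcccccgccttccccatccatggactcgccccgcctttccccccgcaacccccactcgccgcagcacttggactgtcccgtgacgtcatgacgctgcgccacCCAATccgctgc
Mki67: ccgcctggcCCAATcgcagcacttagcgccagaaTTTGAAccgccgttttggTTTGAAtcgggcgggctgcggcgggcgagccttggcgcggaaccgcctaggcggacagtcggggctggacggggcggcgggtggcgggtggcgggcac
Ccnb2 held 3 CCAAT boxes, Cenpe held 1, and Mki67 held 2 CHR matches beside 1 CCAAT box.

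CHR letters were in 7 of the 15 mitotic promoters (46.7%) over 250 upstream bases and in 2 of the 15 S-phase promoters (13.3%), against 17.5% of all promoters. With the whole 300 bases of the table searched, 50 bases after the start included, the counts were 12 of 15 (80%) and 2 of 15 (13.3%), against 19.4%. E2F sites in these 300 bases were in 7 of 15 S-phase promoters (46.7%) and 1 of 15 mitotic promoters (6.67%), against 3.26%. This wider search was added after the data had been seen. The medians by E2F site and by CHR match rest on the 250 bases alone. CCAAT boxes were in 13 of the 15 mitotic promoters (86.7%) and 9 of the 15 S-phase promoters (60%), against 38.7%. Members with a CHR match in the 250 bases had a median log2 change of −0.04 (10 genes, 6 below 0), and those without had −0.05 (27 genes, 19 below 0).

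The phases were then averaged in each embryo. Each gene was set to its mean over the 8 embryos and the deviations were averaged over the genes of a phase. The S-phase genes averaged 0.03, 0.02, 0.07 and 0.03 in controls 1 to 4 and −0.02, 0.02, −0.11 and −0.04 in mutants 1 to 4. All controls were above 0, mutant 2 lay among them, and mutant 3 was the lowest. The mitotic genes averaged −0.04, −0.04, 0.05 and 0.04 in controls and 0.0055, 0.02, −0.06 and 0.02 in mutants. Mutant 3 was the lowest here too, and the 2 control litters lay on opposite sides of 0, further apart than the means of the genotypes.

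The S-phase average minus the mitotic average was 0.08, 0.06, 0.01 and −0.01 in controls 1 to 4 and −0.03, 0.0009, −0.05 and −0.06 in mutants 1 to 4. The groups overlapped at control 4 and mutant 2. The difference between the medians of the 2 phases was −0.05, and over the alternative fits it ran from −0.10 to −0.03. In the fit without controls 3 and 4 the mitotic median was 0.03, and with quantile normalization repeated it was 0.006, so the sign of the mitotic median was not stable. The S-phase median stayed below 0 in all 23 alternative fits, from −0.11 to −0.03, and was −0.06 without mutant 3. Genes brighter than the median of all genes had a median log2 change of −0.02.

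**Figure D4:**
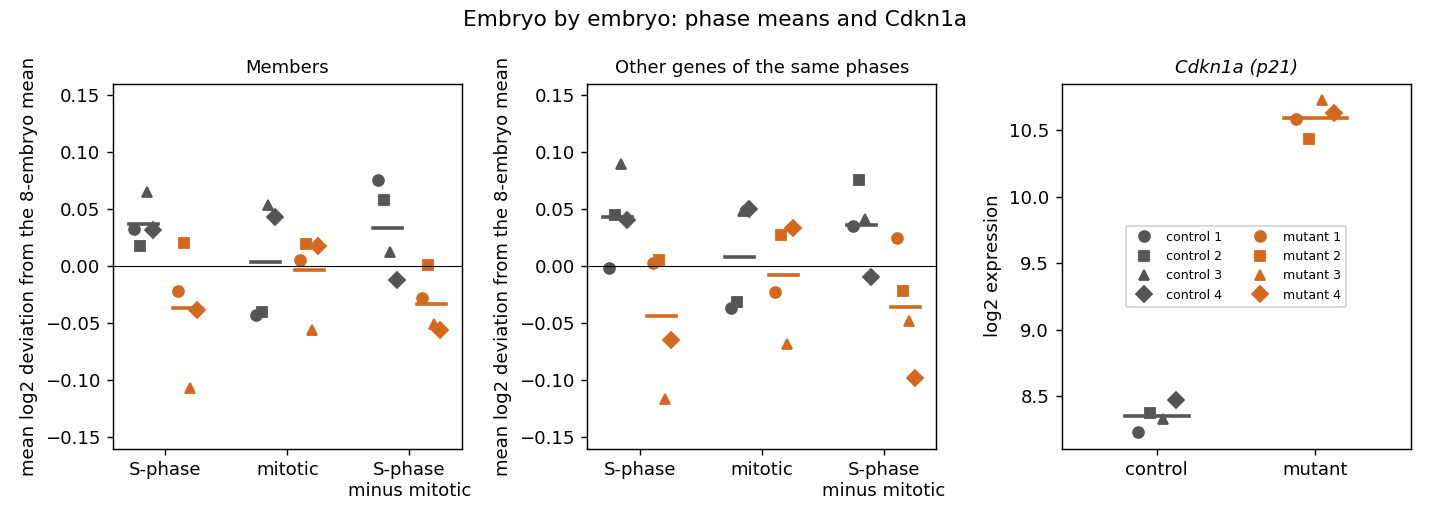
Mean log2 deviation from the 8-embryo mean (vertical axis, left and middle panels) for S-phase genes, mitotic genes and their difference, in the members (left) and in other genes of the same phases (middle), and log2 expression of Cdkn1a (right); marker shapes are embryos and bars are group means. Cdkn1a separates the genotypes by 2.24, on an axis many times wider than that of the phase averages, where the groups overlap for the S-phase genes, the mitotic genes and their difference.

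The G1 cyclins and kinases gave the only member with an unadjusted p under 0.05 in the higher direction. Ccnd2, the cyclin D2 gene, which drives Cdk4 and Cdk6, had log2 values of 12.07, 12.12, 11.94 and 12.06 in controls 1 to 4 and 12.26, 12.27, 12.13 and 12.19 in mutants 1 to 4. All mutants lay above all controls, mutant 3 only just above control 2. The log2 change was 0.16 ± 0.06 (SE), or 1.12-fold, with an adjusted p of 0.437 by limma, and it passed in 0 of 23 alternative fits. Ccnd1, the gene of cyclin D1, had log2 values of 11.49, 11.48, 11.38 and 11.47 in controls and 11.45, 11.39, 11.26 and 11.29 in mutants. Control 3 lay below mutants 1 and 2, and the log2 change of −0.11 ± 0.06 (SE) had an adjusted p of 0.647 by limma.

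Ccnd3 had a log2 change of 0.02. Cdk4 had log2 values of 12.88, 12.95, 13.00 and 12.93 in controls and 12.94, 12.90, 12.88 and 12.83 in mutants, which overlapped, with a log2 change of −0.05 and an adjusted p of 0.825 by limma. Cdk6 had a log2 change of 0.05 and Cdk2, the partner of cyclins E and A, −0.13. The 95% interval of Cdk2 ran from −0.31 to 0.05.

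Transcriptional regulators of the cycle did not pass either. Rb1, the retinoblastoma gene that restrains E2F, had log2 values of 9.46, 9.57, 9.56 and 9.61 in controls and 9.51, 9.56, 9.45 and 9.54 in mutants, with a log2 change of −0.04 and an adjusted p of 0.895 by limma. E2f1, an activating E2F, had 9.59, 9.63, 9.86 and 9.72 in controls and 9.72, 9.70, 9.74 and 9.82 in mutants, with a log2 change of 0.04. Mybl2, the gene of B-Myb, had 9.81, 9.88, 10.02 and 10.02 in controls and 9.82, 9.84, 9.91 and 9.89 in mutants, with a log2 change of −0.07. In both E2f1 and Mybl2 the control litters stood apart while the mutants fell inside their range. Foxm1 had 9.98, 9.87, 9.97 and 10.05 in controls and 9.94, 10.05, 9.81 and 9.98 in mutants, a log2 change of −0.02, and E2f2 had −0.04. Second, dimmer probe sets of Mybl2, Rb1 and Rrm2 existed, and averaging probe sets left 0 members called.

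Of the CDK inhibitors, Cdkn1a and Cdkn2a passed the test. Cdkn1a had log2 values of 8.23, 8.37, 8.33 and 8.47 in controls 1 to 4 and 10.58, 10.43, 10.72 and 10.62 in mutants 1 to 4. Its log2 change was 2.24 ± 0.08 (SE), or 4.71-fold with a 95% interval of 4.17 to 5.33, and its adjusted p was 2.28e-07 by limma. Cdkn2a, the gene of p16 and p19Arf, had log2 values of 7.77, 7.93, 7.66 and 7.58 in controls and 8.24, 8.24, 8.14 and 8.27 in mutants, and rose by 0.49 with an adjusted p of 0.0164 by limma. Its call was lost in 7 of 23 alternative fits, among them those without control 3, control 4 or mutant 4, where its log2 change was 0.47, 0.45 and 0.47, and the adjusted p over the fits ran from 0.00557 to 0.0953. Of 7 inhibitors 2 rose and 0 fell, against 0.604% and 0.248% of all genes. The other 5 did not pass. Their log2 changes were 0.47 for Cdkn2b, 0.37 for Cdkn2c, 0.01 for Cdkn2d, and −0.16 for both Cdkn1b and Cdkn1c.

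Further genes of the cycle were read from lists drawn up by name. None of the 51 other S-phase genes passed (0 of 51). Their median log2 change was −0.09 and 43 were below 0, and 7 (13.7%, against 4.26% of all genes) were lower and 0 higher at an unadjusted p of 0.05 by limma. Hells, a chromatin remodeller, and Rpa3, a subunit of the single-strand binding protein RPA, had log2 changes of −0.22 and −0.27 with adjusted p of 0.333 and 0.343 by limma. None of the 68 other mitotic genes passed (0 of 68). Their median was −0.03 with 44 below 0, and 2 (2.94%, against 5.61% of all genes) were higher and 0 lower at an unadjusted p of 0.05 by limma. These lists come from the same 8 lungs as the members and are not independent of them.

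Those 2 mitotic genes were Psrc1 and Ncapd2. Psrc1, a microtubule regulator of the spindle, had log2 values of 9.67, 9.69, 9.99 and 9.94 in controls and 10.21, 10.24, 10.18 and 10.34 in mutants, with a log2 change of 0.42 ± 0.08 (SE). Its adjusted p was 0.0504 by limma, just outside the threshold, and it passed in 9 of 23 alternative fits, among them the one without control 3, where its log2 change was 0.47, with adjusted p from 0.00844 to 0.229. Ncapd2, a condensin subunit, had log2 values of 10.71, 10.71, 10.72 and 11.09 in controls and 11.12, 11.19, 11.30 and 11.46 in mutants. Control 4 reached almost to mutant 1, far from the other controls. The log2 change was 0.46 ± 0.11 (SE), the adjusted p 0.109 by limma, and it passed in 4 of 23 alternative fits, with adjusted p from 0.0231 to 0.406; without control 4 the log2 change was 0.55 and it passed.

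The 20 genes of the E2F, RB and DREAM machinery held 0 that passed, and their median log2 change was −0.07. Of the 20, 15 (75%) had a log2 change below 0, against 47.1% of all genes. In 5 (25%) all mutants lay below all controls, against 3.6% of all genes, and in 1 all lay above. Myb and Mycn, transcription factors of progenitor growth, had −0.26 and −0.20 with adjusted p of 0.213 and 0.325 by limma. The RB-related gene Rbl2 had 0.21 and an adjusted p of 0.429 by limma. Of 22 genes of the ubiquitin ligases APC/C and SCF 0 passed, with a median of −0.04, and the subunits Anapc13 and Anapc15 had 0.17 and −0.24. Of the 22, 20 (90.9%) had a log2 change below 0, a share like that of the S-phase members (88.2%). In 3 (13.6%) all mutants lay below all controls, and in 0 all lay above. The unadjusted p of 0.05 by limma was reached by 4 of the 20 and 2 of the 22 genes of these lists, against 9.86% of all genes.

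A list of genes downstream of p53 was read beside the members. There were 16 genes with a value, of which 8 rose and 0 fell while 8 did not pass, with a median log2 change of 0.40. Of all genes 0.604% were called higher and 0.248% lower. Beside Cdkn1a, Eda2r, a receptor of the TNF family, rose by 1.40, the cyclin G1 gene Ccng1 rose by 1.00 and Zmat3, an RNA-binding zinc finger gene, by 0.81. Gtse1, a regulator of p53 expressed in G2 and singled out after its values were seen, rose by 0.51 with an adjusted p of 0.0448 by limma. It passed in 13 of 23 alternative fits, with adjusted p from 0.0135 to 0.196, and did not pass when control 2, control 3, control 4, mutant 1, mutant 3 or mutant 4 was left out, its log2 change ranging from 0.43 to 0.59 over the fits.

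A few tissue markers passed the test as well. Of 26 epithelial markers 0 rose and 1 fell, Foxa1, by 0.56, with a median log2 change of −0.09 and a summed linear signal of 31410 to 36864 in controls and 31668 to 33362 in mutants. Of the 26, 9 (34.6%) were lower at an unadjusted p of 0.05 by limma, against 4.26% of all genes. In 8 (30.8%) all mutants lay below all controls, against 3.6%. At the same unadjusted p 1 marker (3.85%) was higher, against 5.61% of all genes. Of the 26, 7 had a log2 change above 0, the highest being Krt19 at 0.50. With the Xist covariate 5 fell. Their average deviation was −0.03, −0.06, 0.14 and 0.12 in controls 1 to 4 and −0.06, −0.07, −0.03 and −0.01 in mutants 1 to 4, so controls 3 and 4, which were high for the mitotic genes, were also high here. Of 10 smooth muscle markers 0 rose and 1 fell, Cnn1, by 0.46, and all 10 had a log2 change below 0, or 9 of 10 with quantile normalization repeated and 8 of 10 without mutant 3, with summed signals of 15561 to 16824 in controls and 13791 to 14983 in mutants. The Cnn1 call was lost in 10 of 23 alternative fits, among them those without control 1, control 2, mutant 1, mutant 3 or mutant 4, where its log2 change was −0.47, −0.46, −0.45, −0.42 and −0.49. The summed signal of the 18 mesenchymal markers was higher in every mutant, 40948 to 42978 in controls and 43607 to 44639 in mutants, with a median log2 change of 0.08 and 0 called. Endothelial markers had a median of 0.06 and the 8 measured erythroid markers −0.004, while the adult alpha and beta globin genes were not analysed here. Blood cell and mesothelial markers had medians of 0.04 and 0.001. The 13 heart and skeletal muscle markers had a median of 0.06, and 10 of them had a log2 change above 0. Their summed signal was nevertheless lower in every mutant, 3638 to 4132 in controls and 3362 to 3554 in mutants. Actc1, the brightest of the 13 in controls at a mean log2 value of 10.85, had the lowest change. It was −0.48 and did not pass (adjusted p = 0.148 by limma). Upk1b in mesothelium rose by 0.46, a call lost in 5 of 23 alternative fits, with control 4 or mutant 4 left out among them. The part of tissue composition in the S-phase and mitotic values was not tested.

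Counts at an unadjusted p of 0.05 depended on single embryos. Among the 47 members, 4 were lower in the full data and 2 without control 4, 2 without mutant 1 and 2 without the litter of mutants 3 and 4. With the Xist level as a covariate there were 6, without the litter of mutants 1 and 2 also 6, and with a trended variance prior 7. The count of members higher ran from 0 to 2 over the same fits. None of the 47 passed after adjustment in 22 of the 23 alternative fits, the exception being Mcm3 with the Xist covariate.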

How the data were processed

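Log2 expression was measured with 1-colour Affymetrix arrays in whole lungs of 4 control and 4 mutant embryos. The deposited log2 values per probe set were made by the authors with RMA in the package oligo, per the submitters' processing notes, whose versions, options and build the sources used here do not give. RMA aligns the arrays' distributions, so a shift of most genes would not be seen, and it shrinks changes of dim genes. No detection calls were used. Per the labels' protocols, 100 ng of total RNA was primed with poly(T) and amplified.

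Of 41345 probe sets, 23521 had 1 gene symbol, 1814 had several and 16010 were not named by the platform annotation, which can be old. Of the single names 23328 matched a RefSeq table (GRCm38.p6) by gene number, and 0 symbols changed. Each gene was represented by its brightest probe set. All 22180 genes were fitted with limma 3.58.1 in R 4.3.3, with a random effect of litter (consensus correlation 0.153), empirical Bayes moderation, two-sided tests and Benjamini-Hochberg adjustment at 0.05. The fit was tested on 10 draws of simulated data with a litter correlation of 0.15. It recovered on average 45.8% of 1.25-fold changes (36% to 60% over draws), 87.4% of 1.5-fold and 99.2% of 2-fold changes. Of its calls 8.19% were false, above the threshold of 0.05. The litter correlation was estimated too low, at a mean of 0.0391. Arrays limit the precision by their number, 4 per group, and the embryos are separate animals. Same-numbered embryos of the groups were not littermates, so the numbers do not pair them.

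The members and lists were chosen with earlier results of these data known. Values in every embryo are given for 7 fixed genes, those with the smallest p in each role, and the brightest of each role; from other lists, up to 4 called genes or the 2 with the smallest p. Chek1, Mcm5, Rrm2, Rbl2 and Gtse1 were singled out after their values were seen. The CDK inhibitors that did not pass were also added after their values were seen. Promoter motifs were counted on both strands. Figures used Python 3.11.15 and matplotlib 3.10.9. Alternatives covered litters, single embryos, dim genes, scaling, probe sets, the variance prior, array weights, Xist and the threshold.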

Additional observations from a re-analysis of the deposited data

Results flagged for a closer look

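In 10 of 168 sets of 4 embryos a single value stood far from the other 3, where chance gives about 1 in 20, or 8.4. Among the members, mutant 3 was lowest for Mcm4 at a log2 value of 11.57 (others 11.77 to 11.80), and mutant 2 was highest for Mcm7 at 11.53 (others 11.45 to 11.46). Control 3 was highest for Bub1b at 11.03 (others 10.87 to 10.89) and lowest for Ccnd1 at 11.38 (others 11.47 to 11.49) and Cdk6 at 10.38 (others 10.58 to 10.63). Outside the members, control 4 was highest for Ncapd2 at 11.09 (others 10.71 to 10.72), mutant 2 was lowest for Ccng1 at 11.75 (others 11.94 to 11.97), and mutant 3 was highest for Slc4a1, an erythroid membrane gene, at 8.54 (others 8.09 to 8.14). The mean deviation of the CDK inhibitors was highest in mutant 4 at 0.29 (others 0.21 to 0.22). That of the listed genes downstream of p53 was lowest in mutant 2 at 0.20 (others 0.26 to 0.27).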

How the results depend on the processing

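The 23 alternative fits and the looser threshold left 0 members called, except 1 lower, Mcm3, with the Xist covariate, where the other cell cycle lists had 16 called genes against 9. Over all genes, 134 were higher and 55 lower. These counts were 65 and 33 with littermates averaged, 361 and 313 with the Xist covariate, and 75 and 23 without the litter of mutants 3 and 4; the lower count was 95 without a litter block, 90 without the litter of controls 1 and 2, 91 with quantile normalization repeated and 96 at an adjusted p of 0.10. With single embryos left out they ranged from 73 to 157 and from 28 to 75, the lowest without mutant 4 (73 and 28) and control 4 (89 and 32). The S-phase median was −0.11 without controls 1 and 2; the mitotic median was 0.033 and the difference between phases −0.10 without controls 3 and 4. The members followed singly across fits were those with values given in every embryo by rule, and Chek1, Mcm5, Mcm6, Rrm2 and Cdc20. Among them, signs turned in Ccnb2 (−0.012) and E2f1 (−0.048) without controls 1 and 2. Signs also turned in Mybl2 (0.016) and Foxm1 (0.018) without controls 3 and 4, and in Foxm1 without mutants 3 and 4 (0.028). With single embryos left out Foxm1 ranged from −0.060 to 0.021, the highest without mutant 3. Other members turned too: the mitotic genes below 0 ranged from 5 to 16 of 19 and the S-phase genes from 12 to 16 of 17. Slc4a1 turned to 0.018 without mutants 1 and 2. The cause was not tested. With the replicate number as a block, 140 genes were higher and 55 lower and 0 members were called; same-numbered embryos shared no pairing (correlations of deviations −0.23, −0.05, −0.27 and 0.03). Arrays without detection calls limit what can be said of dim genes.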
